A study of Mus musculus with 6 samples.

Results

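The enzymes described here are 44 genes of glycolysis, the pentose phosphate pathway and the tricarboxylic acid (TCA) cycle, chosen by name from the platform annotation out of 16593 named genes on the array. Glycolysis holds 19 of them, the pentose phosphate pathway 7, and the pyruvate dehydrogenase (PDH) complex with the TCA cycle 18. For 38 of the 44 a named probe was at hand, and 34 passed the filter on dim probes, which asked for a detection p-value under 0.05 on at least 2 of 6 arrays. Gpi1, Eno1, Ldhb, G6pdx, Pgd and Rpe were not analysed here. The probes of Hk3, Aldoc, Pgk1 and Sucla2 were not well above background on any array and were not tested. Thus 13 of 19 glycolytic, 4 of 7 pentose phosphate and 17 of 18 PDH and TCA genes have a test. Counts of enzymes that rose or fell are over the tested genes, not over all members.

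The samples were thymocytes that carry both CD4 and CD8 and had not yet been selected, from AND.Rag1-/-H-2d mice. All groups are labelled with the loss of Rag1, the H-2d background and the AND transgene, a T cell receptor that sees a cytochrome c peptide presented by I-Ek. Stimulation lasted 7 h, with plate-bound I-Ek Ig dimers that carried the peptide MCC (negative selection signals per the labels), gp250 (positive selection signals) or Hb (non-selecting). Each ligand had 2 arrays with 1 colour. The labels give no age of the animals and do not say whether the 2 arrays of a ligand stem from different animals or cultures. The p-values thus rest on a spread that may be technical.

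Glycolysis splits glucose into pyruvate in the cytosol, and lactate dehydrogenase turns pyruvate into lactate so that the pathway can go on. The pentose phosphate pathway branches off after hexokinase and supplies NADPH and ribose phosphate for nucleotides. PDH carries pyruvate carbon into the TCA cycle of the mitochondria. Resting lymphocytes are known for a low glycolytic rate and activated ones for a high rate, and many steps have isoenzymes that differ between tissues.

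Mean deposited intensity was 445 to 613 per array, and 10519 to 11603 of 25697 probes per array were detected above background. Replicates of a ligand correlated with r = 0.994 over the 11942 tested probes for each ligand. Precision is limited by the number of arrays. The label as thymocytes was checked against 12 markers, of which 10 were tested. All 10 were detected on both gp250 and both Hb arrays, and the Cd8a probe was not detected anywhere. With MCC 7 of the 10 fell at least 2-fold against Hb, with a median log2 fold change of -1.96 over the list. The log2 fold change was -4.62 for Dntt, -3.66 for Rag1, -2.47 for Cd8b1 and -1.23 for Cd1d1. Cd4, Rag2 and Ptcra were not well above background on either MCC array, and were at least 16.9-fold, 8.64-fold and 2.31-fold lower. Of the rest Cd3g rose (0.52 ± 0.10), and Cd3e (0.22 ± 0.08) and Cd3d (0.15 ± 0.09) did not pass. The Rag1 probe had a deposited intensity of 7638 to 9152 with gp250 and Hb and of 745 to 822 with MCC, although the mice are labelled Rag1-/-. Whether that probe lies in the deleted part of the gene was not tested, so it does not check the label. Of the markers of other cells with a named probe, 0 of 4 myeloid, 1 of 2 erythroid, 2 of 5 stromal and 2 of 3 B cell markers were tested. The lists held 5, 4, 6 and 4 genes, and those without a named probe could not be read. The summed deposited intensity of the thymocyte markers was 86589 to 89585 with MCC, beside 110358 to 110600 with gp250 and 109484 to 116326 with Hb. That of B cell markers was 290 to 294 with MCC, beside 1022 to 1176 with gp250 and 1112 to 1129 with Hb. The stromal sum was 556 to 559, beside 1109 to 1346 and 1191 to 1287. Of the 2 tested stromal markers 1 rose (log2 fold change 0.41) and 1 fell (-1.67) in MCC against Hb. The erythroid sum was 2699 to 2744, beside 3076 to 3688 and 2964 to 3434. Summed myeloid signal was 19.6 to 27.4, beside 43.1 to 45.4 and 24.7 to 54.8. The myeloid range with MCC overlapped that with Hb, and the other 4 sums were lower with MCC than on any other array. Itgam, Itgax, Adgre1, Alas2, Krt5, Col1a1 and Pdgfra were not detected on any array. The part that the change in thymocyte markers or other cells has in the enzyme results was not tested.

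MCC was first set against Hb, which compares negative selection signals with a non-selecting ligand. Most tested glycolytic enzymes rose, some pentose phosphate and TCA enzymes rose by less than 2-fold, and the NADP-dependent isocitrate dehydrogenases fell. In limma, 17 of 34 tested enzymes rose and 4 fell, where 54.8% of all 11942 tested probes passed, 26.6% up and 28.2% down. Glycolysis had 9 of 13 up and 1 down, the pentose phosphate pathway 2 of 4 up and 1 down, and PDH with the TCA cycle 6 of 17 up and 2 down. The median log2 fold change was 1.15 for glycolysis, 1.13 without Hk2, 0.34 for the pentose phosphate pathway and 0.10 for PDH and the TCA cycle, beside -0.03 for all tested probes. Hk2 passed the detection filter through its MCC arrays alone and so had to differ; without it 16 of 33 enzymes and 8 of 12 glycolytic ones rose. Rises of at least 2-fold were measured for 8 enzymes with Hk2 and 7 without it, all of them glycolytic, where 8.93% of all probes rose that much. Falls of at least 2-fold were measured for 2 enzymes, Idh2 and Idh1, where 8.58% of all probes fell that much. These are signals of whole cell populations, in which fewer cells of a type and less RNA per cell cannot be told apart.

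**Figure D1:**
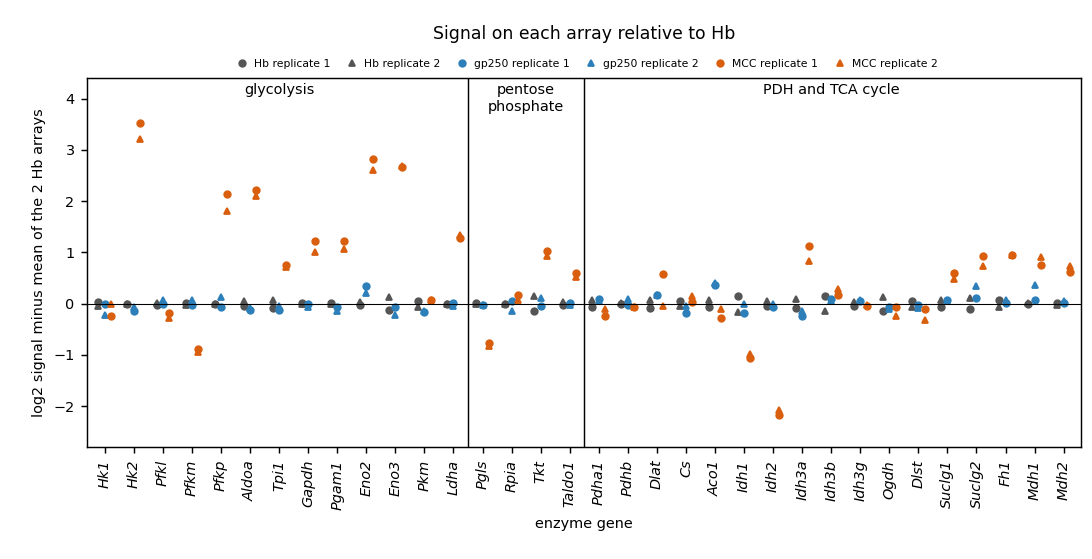
Normalized log2 signal of the 34 tested enzyme genes on each of the 6 arrays, minus the mean of the 2 Hb arrays, in pathway order. Circles and triangles are replicates 1 and 2. The MCC points lie above all gp250 and Hb points for 20 enzymes and below all of them for 9. Of all tested probes 33.3% lie above and 36% below. The 20 include Hk2, which passed the detection filter through its MCC arrays alone.

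RefSeq promoter windows on GRCm38.p6 were found for 43 of the 44 members, 61 windows in all, and the 250 bases before each start site were searched on both strands. CACGTG is the E-box that MYC proteins bind, and ACGTG and GCGTG are cores of the hypoxia response element that HIF proteins bind; every CACGTG also counts as ACGTG. A gene with several windows, such as Ogdh with overlapping ones, was counted once, as holding a motif if any window did. The E-box was in 3 of 43 members (6.98%) and 6.86% of all 27025 genes, ACGTG in 27.9% and 18.5%, and GCGTG in 60.5% and 30.9%. The member windows had a median GC content of 59.6%, against 52.4% for all windows. ACGTG was found for 5 of the 16 enzymes with a window that rose with MCC, for 1 of 4 that fell and for 4 of 13 that were not called. GCGTG was found for 10 of these 16, for 4 of 4 that fell and for 7 of 13 not called. The E-box was found for 1 of the 16 (Ldha), for 1 of 4 that fell (Pfkm) and for 1 of 13 not called (Ogdh). Windows are printed for 4 genes: Ldha, Hk2 and Pfkp, which rose, and Idh2, which had the largest fall. They are written 5′ to 3′ on their own strand, with ACGTG and GCGTG on either strand in capitals. The Ldha window (chr7:46845554-46845803, plus strand) holds CACGTG at 2 places, and Hk2 (chr6:82774455-82774704, minus strand) holds ACGTG at 2 places. Pfkp (chr13:6648772-6649021, minus strand), which rose, holds GCGTG at 3 places, and Idh2 (chr7:80115351-80115600, minus strand), which fell, at 1 place. A second Ldha window lies further downstream, holds neither CACGTG nor ACGTG, and is not shown. Eno2, Eno3 and Aldoa rose more than Pfkp and Ldha, and their windows are not shown either. The Eno2 window holds none of these motifs, nor do those of Tpi1 and Suclg2, which also rose. The Eno3 window holds GCGTG at 1 place, and no Aldoa window holds ACGTG at more than 1 place. The letters describe these windows and do not show binding.
Ldha: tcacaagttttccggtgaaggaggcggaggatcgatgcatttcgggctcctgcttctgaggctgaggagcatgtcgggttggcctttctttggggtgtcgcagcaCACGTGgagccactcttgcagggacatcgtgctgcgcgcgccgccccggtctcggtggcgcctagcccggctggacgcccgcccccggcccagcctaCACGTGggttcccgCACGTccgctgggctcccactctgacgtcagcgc
Hk2: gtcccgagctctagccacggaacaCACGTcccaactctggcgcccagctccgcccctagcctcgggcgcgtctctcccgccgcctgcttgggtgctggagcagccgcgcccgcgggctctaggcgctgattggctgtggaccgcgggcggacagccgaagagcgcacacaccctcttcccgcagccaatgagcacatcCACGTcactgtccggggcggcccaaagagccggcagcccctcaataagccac
Pfkp: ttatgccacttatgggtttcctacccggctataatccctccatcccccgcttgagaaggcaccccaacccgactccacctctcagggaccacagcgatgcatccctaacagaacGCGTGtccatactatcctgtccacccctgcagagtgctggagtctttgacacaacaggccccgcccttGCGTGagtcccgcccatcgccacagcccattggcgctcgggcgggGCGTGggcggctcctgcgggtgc
Idh2: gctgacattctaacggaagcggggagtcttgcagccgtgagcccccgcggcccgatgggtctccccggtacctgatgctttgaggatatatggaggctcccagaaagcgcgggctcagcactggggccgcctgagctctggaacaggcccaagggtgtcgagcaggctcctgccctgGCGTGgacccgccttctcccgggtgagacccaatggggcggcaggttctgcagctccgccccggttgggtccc

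At the entry of glycolysis, Hk2, an inducible hexokinase that traps glucose as its phosphate, had normalized signals of 9.01 and 8.71 (log2) on the MCC arrays. It read 5.35 and 5.42 with gp250 and 5.49 and 5.48 with Hb, and was not well above background on any of these 4 arrays. In deposited intensity this was 586 and 454 with MCC against 18.7 to 25.6 on the other arrays. Hk2 was therefore at least 8.87-fold higher with MCC than with Hb. No test is given, since the filter kept this probe only because it was high with MCC. Hk1, the hexokinase of most tissues, had signals of 7.20 and 7.45 with MCC, 7.45 and 7.23 with gp250, and 7.49 and 7.41 with Hb. These overlapped, and its log2 fold change was -0.12 ± 0.13 (SE, n = 2 arrays per ligand; 95% interval -0.43 to 0.18; adjusted p = 0.445 in limma).

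Phosphofructokinase commits sugar phosphate to glycolysis, and its 3 genes differed in direction. Pfkp, the platelet type, read 11.30 and 10.98 with MCC, 9.11 and 9.30 with gp250, and 9.16 and 9.16 with Hb. MCC lay above every other array, a 3.93-fold rise (log2 1.98 ± 0.13, adjusted p = 6.09e-05), and a dimmer probe gave log2 1.90 ± 0.13. Pfkm, the muscle type, read 9.48 and 9.42 with MCC, 10.34 and 10.43 with gp250, and 10.38 and 10.35 with Hb. It fell by 0.91 ± 0.09 on the log2 scale (adjusted p = 0.000273), and its other 2 tested probes fell by 1.11 and 0.54. Pfkl, the liver type, read 9.29 and 9.17 with MCC, 9.45 and 9.52 with gp250, and 9.44 and 9.48 with Hb, and did not pass on its brightest probe (log2 -0.23 ± 0.09, adjusted p = 0.0757). A dimmer Pfkl probe went the other way (0.74 ± 0.25, adjusted p = 0.0426), so the direction of this gene is unsettled.

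Aldoa, the aldolase that cleaves the doubly phosphorylated sugar, read 12.24 and 12.13 with MCC, 9.91 and 9.94 with gp250, and 9.98 and 10.07 with Hb. That was a 4.47-fold rise (log2 2.16 ± 0.09, adjusted p = 9.99e-06). Tpi1, which interconverts the 2 triose phosphates, rose 1.67-fold (log2 0.74 ± 0.10), and its 3 tested probes gave 0.69 to 0.74. Gapdh, the dehydrogenase that follows, read 14.80 and 14.59 with MCC, 13.56 and 13.52 with gp250, and 13.58 and 13.56 with Hb. It rose 2.17-fold (log2 1.12 ± 0.10, adjusted p = 0.000221), and a second probe gave 1.16 ± 0.08. Pgam1, the phosphoglycerate mutase, read 8.72 and 8.57 with MCC against 7.36 to 7.51 on the other 4 arrays, a 2.22-fold rise (1.15 ± 0.10). The MCC arrays of these 4 genes lay above all others, where those of 33.3% of all tested probes did.

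The enolases Eno2, best known from neurons, and Eno3, best known from muscle, had the largest fitted rises after Hk2. Eno2 read 9.29 and 9.08 with MCC, 6.81 and 6.67 with gp250, and 6.43 and 6.48 with Hb, a 6.61-fold rise over Hb (log2 2.73 ± 0.11, adjusted p = 8.3e-06). Eno3 read 10.70 and 10.72 with MCC, 7.97 and 7.81 with gp250, and 7.90 and 8.16 with Hb, a 6.40-fold rise (2.68 ± 0.12, adjusted p = 1.21e-05). Whether these probes also bind other enolase transcripts was not tested. Pkm, pyruvate kinase, read 11.80 and 11.79 with MCC, 11.57 and 11.58 with gp250, and 11.78 and 11.66 with Hb. Its change did not pass (log2 0.08 ± 0.09, interval -0.14 to 0.29, adjusted p = 0.507), and its single probe does not tell its splice forms apart here. Ldha, the lactate dehydrogenase subunit that favours lactate formation, read 13.56 and 13.63 with MCC against 12.24 to 12.31 on the other arrays. It rose 2.48-fold (1.31 ± 0.09, adjusted p = 5.81e-05).

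**Figure D2:**
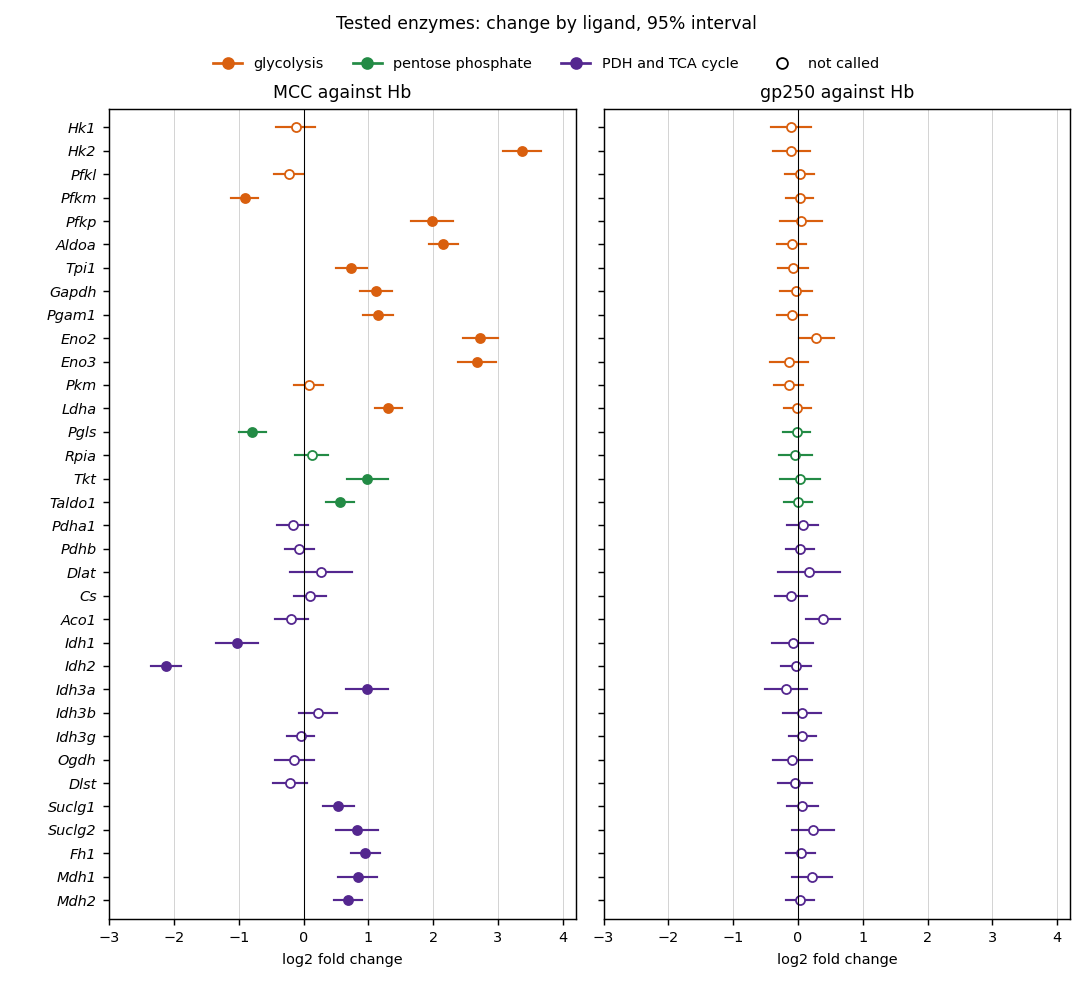
Log2 fold change with its 95% interval from limma for the 34 tested enzyme genes, MCC against Hb on the left and gp250 against Hb on the right. Filled points passed an adjusted p of 0.05: 21 on the left, where 54.8% of all tested probes passed, and 0 on the right. Those on the left run from -2.13 for Idh2 to 3.37 fitted for Hk2. The detection filter kept Hk2 through its MCC arrays alone, so it had to differ, and without it 16 of 33 rose and 4 fell.

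In the pentose phosphate pathway the 4 tested enzymes moved in different directions. Pgls, the lactonase of the branch that makes NADPH, read 9.99 and 9.92 with MCC, 10.73 and 10.72 with gp250, and 10.75 and 10.74 with Hb. It fell by 0.79 ± 0.09 on the log2 scale (adjusted p = 0.000426). Tkt, the transketolase that links the pathway back to glycolysis, read 11.88 and 11.78 with MCC, 10.80 and 10.96 with gp250, and 10.70 and 10.99 with Hb. It rose 1.98-fold (log2 0.99 ± 0.13, adjusted p = 0.00096). Taldo1, the transaldolase, read 11.61 and 11.53 with MCC against 10.98 to 11.04 on the other arrays and rose 1.48-fold (0.56 ± 0.09, adjusted p = 0.00227). Rpia, which forms ribose phosphate, read 10.22 and 10.11 with MCC against 9.90 to 10.09 on the other arrays and did not pass (0.13 ± 0.10, interval -0.13 to 0.38). The MCC arrays of Tkt, Taldo1 and Rpia lay above all others and those of Pgls below. Of all tested probes 33.3% lay above and 36% below.

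At the entry of the TCA cycle no tested gene passed. The log2 fold changes were -0.17 ± 0.10 for Pdha1 and -0.06 ± 0.09 for Pdhb, both subunits of the first PDH enzyme, and 0.27 ± 0.20 for Dlat, its acetyltransferase. The value was 0.10 ± 0.10 for Cs, citrate synthase. Their adjusted p-values ran from 0.196 to 0.586. The MCC arrays of Dlat differed, at 7.24 and 6.62. Ogdh and Dlst, parts of the oxoglutarate dehydrogenase complex, did not pass either (-0.14 ± 0.12 and -0.21 ± 0.11).

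The isocitrate dehydrogenases held the 2 largest falls and also a rise. Idh2, the mitochondrial enzyme that makes NADPH, read 8.78 and 8.89 with MCC, 10.90 and 10.96 with gp250, and 10.91 and 11.01 with Hb. In deposited intensity it was 492 and 519 with MCC and 1638 to 1881 on the other arrays. It was 4.37-fold lower than with Hb (log2 -2.13 ± 0.10, adjusted p = 1.17e-05). Idh1, its cytosolic counterpart, read 7.39 and 7.47 with MCC, 8.29 and 8.46 with gp250, and 8.61 and 8.30 with Hb, a 2.04-fold fall (-1.03 ± 0.13, adjusted p = 0.000927). Idh3a, the catalytic subunit of the NAD-dependent enzyme of the cycle, went up instead, with 8.38 and 8.08 for MCC, 7.0 and 7.11 for gp250, and 7.15 and 7.33 for Hb. It rose 1.98-fold (0.98 ± 0.13, adjusted p = 0.00114). Its partner subunits did not pass. Idh3b read 11.58 and 11.69 with MCC against 11.26 to 11.56 on the other arrays (0.22 ± 0.12, adjusted p = 0.166). Idh3g read 12.29 and 12.30 with MCC against 12.30 to 12.41 elsewhere (-0.04 ± 0.09, adjusted p = 0.701). Without scaling between arrays both were called as rises.

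The tested genes of succinyl-CoA ligase, fumarase and malate dehydrogenase, 5 in all, rose, where 26.6% of all tested probes did. They are part of the 17 tested PDH and TCA genes, of which 6 rose. The naming rule does not set these 5 apart as a group. Succinate dehydrogenase, which acts between the ligase and fumarase, is on the list of further genes and did not move one way. Its subunit genes Sdhb (0.44 ± 0.10, adjusted p = 0.0119) and Sdhc (0.35 ± 0.09, adjusted p = 0.0155) rose and Sdhd fell (-0.35 ± 0.10, adjusted p = 0.0234). These 3 were named with their values in view, and each lost its call in at least 1 fit without a single array, Sdhd in all 4 fits that left out an MCC or Hb array and also without scaling between arrays. Fh1, fumarase, read 10.67 and 10.66 with MCC against 9.64 to 9.78 on the other arrays, a 1.94-fold rise (0.95 ± 0.09, adjusted p = 0.000271). Mdh1, the cytosolic malate dehydrogenase, rose 1.78-fold (0.83 ± 0.13) and Mdh2, the mitochondrial one, 1.61-fold (0.68 ± 0.09). Mdh1 read 8.49 and 8.63 with MCC, 7.79 and 8.09 with gp250, and 7.72 and 7.74 with Hb. Mdh2 read 11.16 and 11.27 with MCC against 10.51 to 10.58 elsewhere. Of the succinyl-CoA ligase subunits, Suclg1, shared by both forms of the enzyme, read 12.49 and 12.37 with MCC against 11.83 to 11.98 on the other arrays. It rose 1.45-fold (0.53 ± 0.10), with 0.81 ± 0.09 on a dimmer probe. Suclg2, the subunit of the GTP-forming enzyme, read 7.51 and 7.31 with MCC, 6.68 and 6.92 with gp250, and 6.48 and 6.68 with Hb, and rose 1.78-fold (0.83 ± 0.13). Aco1, the cytosolic aconitase and iron sensor, was near background and detected on 1 of 2 MCC arrays, and did not pass against Hb (-0.19 ± 0.11).

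Isoenzymes were compared by the difference of their log2 signals on the same array, which shows unequal change but does not rank their levels. An exact permutation of 2 against 2 arrays cannot go below a two-sided p of 0.333, so no p is given. Hk2 minus Hk1 moved from -2.0 and -1.93 with Hb and -2.10 and -1.81 with gp250 to 1.80 and 1.26 with MCC, although Hk2 was at background under both weak ligands. Pfkp minus Pfkm moved from -1.22 and -1.19 with Hb and -1.24 and -1.13 with gp250 to 1.82 and 1.55 with MCC, a 7.40-fold shift of the ratio. Idh2 minus Idh1 dropped from 2.30 and 2.71 with Hb and 2.61 and 2.50 with gp250 to 1.39 and 1.42 with MCC, a shift of -1.10. For Idh3a minus Idh3g the mean went from -5.09 with Hb and -5.35 with gp250 to -4.07 with MCC. In these 4 pairs the MCC arrays did not overlap the others, which the filter had fixed for Hk2. The same held for Pfkp minus Pfkl (shift from Hb 2.21), Pfkl minus Pfkm (0.68), Idh3a minus Idh3b (0.76) and Idh3b minus Idh3g (0.27). The MCC arrays did overlap for Eno3 minus Eno2 (shift -0.05), Mdh2 minus Mdh1 (-0.15), Suclg1 minus Suclg2 (-0.30) and Pdha1 minus Pdhb (-0.11). Over all tested probes taken singly, the MCC arrays overlapped those of the weak ligands for 30.7%. No such share was computed for pairs.

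**Figure D3:**
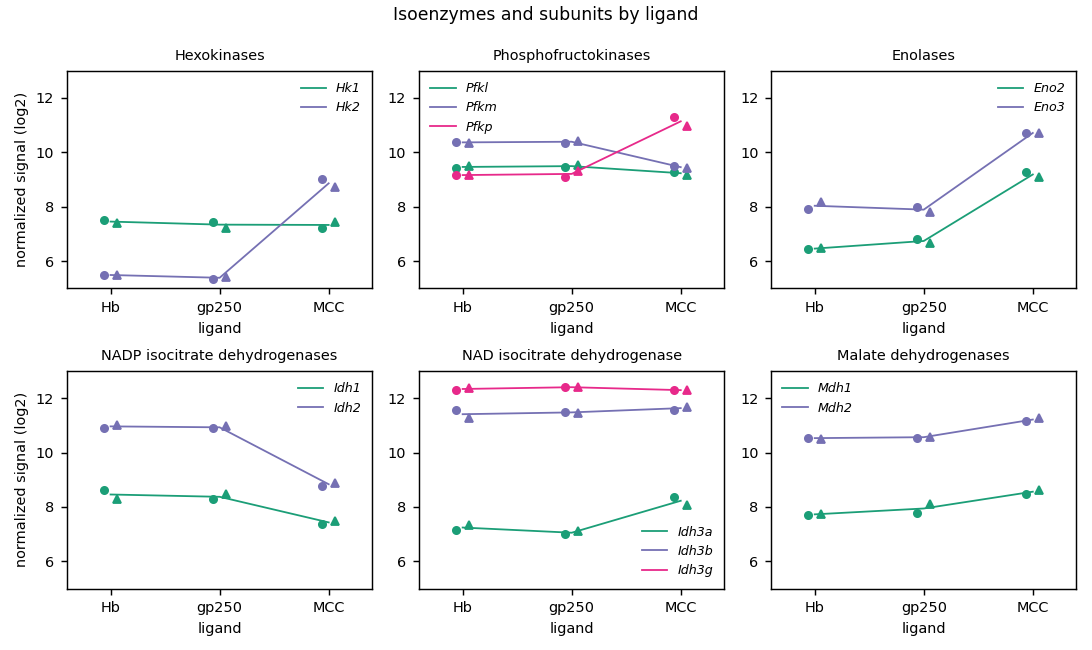
Normalized log2 signal by ligand for 6 families of isoenzymes or subunits, with each array as a point (circle, replicate 1; triangle, replicate 2) and lines through the means. Heights of different probes are not comparable, only their slopes: Hk2 and Pfkp rise with MCC while Hk1 overlaps and Pfkm falls, and Idh2 falls by 2.13 from Hb.

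Negative against positive selection signals, MCC against gp250, shares its MCC arrays with the comparison above. Of the 34 enzymes 17 rose, or 16 of 33 without Hk2, and 5 fell, where 55.8% of all tested probes passed, 27.1% up and 28.6% down. The 17 rises and 4 of the falls were called against both weak ligands. Without Hk2, 8 of 12 glycolytic, 2 of 4 pentose phosphate and 6 of 17 PDH and TCA enzymes rose, and 1, 1 and 3 fell. Without Hk2, 8 enzymes rose at least 2-fold, 7 glycolytic and 1 of the TCA cycle, where 1095 of 11942 tested probes did. The TCA enzyme was Idh3a, 2.26-fold higher than with gp250 (log2 1.18 ± 0.13, adjusted p = 0.000517 in limma). Hk2 was at least 9.35-fold higher, Eno3 7.06-fold (log2 2.82 ± 0.12), Eno2 5.44-fold (2.44 ± 0.11), Aldoa 4.79-fold (2.26 ± 0.09) and Pfkp 3.82-fold (1.93 ± 0.13). Idh2 was 4.26-fold lower (-2.09 ± 0.10). The fifth fall was Aco1 (-0.58 ± 0.11, adjusted p = 0.00421), which read 5.73 and 5.92 with MCC, 6.38 and 6.41 with gp250, and 5.95 and 6.08 with Hb. Across the list the 2 MCC arrays lay above all 4 weak ligand arrays for 20 enzymes, Hk2 among them, where 33.3% of all probes did so. They lay below for 9, where 36% of all probes did.

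Positive selection signals were read at the same time point by setting gp250 against Hb. In limma 0 of 34 enzymes passed, as did 0% of all tested probes. At an unadjusted p under 0.05 there were 2 enzymes, Eno2 and Aco1, where 6.55% of all probes reached it. Log2 differences ran from -0.19 (Idh3a) to 0.39 (Aco1), with a median of -0.01. All 34 intervals lay inside a 2-fold change, as did those of 11746 of all 11942 tested probes. Eno2 differed by 0.28 ± 0.11 (interval 0.01 to 0.55, adjusted p = 0.754) and Aco1 by 0.39 ± 0.11 (0.13 to 0.64, adjusted p = 0.716). Aldoa differed by -0.10 ± 0.09 (-0.33 to 0.12), Pfkp by 0.04 ± 0.13 (-0.28 to 0.37), Ldha by -0.01 ± 0.09 (-0.22 to 0.20) and Idh2 by -0.03 ± 0.10 (-0.27 to 0.20). For Hk2 both ligands were at background, where a change would not show.

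Genes around these pathways were read from a list of 81 transporters, regulators and linked enzymes, of which 50 were tested. In MCC against Hb 15 rose (30%) and 16 fell (32%), with a median log2 fold change of -0.07. These shares are near the 26.6% and 28.2% of all tested probes. Without Hb replicate 2 the falls numbered 10. Regulators of PDH moved in both directions. Pdk1, a kinase that switches PDH off, read 7.89 and 7.85 with MCC, 9.82 and 9.98 with gp250, and 9.95 and 9.74 with Hb, and fell by 1.98 ± 0.11 on the log2 scale (adjusted p = 2.9e-05). Pdk3, a kinase of the same family, read 9.97 and 10.22 with MCC, 8.06 and 7.99 with gp250, and 8.20 and 8.39 with Hb, and rose 3.48-fold (1.80 ± 0.12). Pdp1, the phosphatase that switches PDH back on, rose 2.32-fold (1.21 ± 0.09). The MCC arrays of these 3 genes did not overlap those of the weak ligands, where 30.7% of all tested probes did overlap.

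Txnip, which restrains glucose uptake, showed the largest change of the list. It read 11.22 and 11.09 with MCC, 13.76 and 13.63 with gp250, and 13.58 and 13.67 with Hb, and was 5.54-fold lower than with Hb (log2 -2.47 ± 0.10, adjusted p = 8.64e-06). Acss1, the mitochondrial enzyme that activates acetate, was 5.17-fold lower (-2.37 ± 0.09), and H6pd, which makes NADPH from hexose phosphate in the endoplasmic reticulum, 4.44-fold lower (-2.15 ± 0.09). Prps2, which turns ribose phosphate into the precursor of nucleotides, was 2.36-fold lower (-1.24 ± 0.12). For these 3 the MCC arrays lay below all others, where those of 36% of all tested probes did. They read 10.42 and 10.34 for Acss1 against 12.63 to 12.79 elsewhere, and 8.93 and 8.78 for Prps2 against 9.96 to 10.41. Egln3, an oxygen-sensing hydroxylase that marks HIF proteins for decay, rose 3.17-fold (1.67 ± 0.11), and Me2, the mitochondrial malic enzyme, 2.73-fold (1.45 ± 0.11). Egln3 read 10.61 and 10.69 with MCC against 8.88 to 9.09 elsewhere, and Me2 9.07 and 9.19 against 7.29 to 7.77. Myc, a transcription factor known to drive glycolytic genes in activated T cells, was detected on both MCC arrays (6.50 and 6.59), on 1 of 2 gp250 arrays and on no Hb array. It was at least 1.79-fold higher with MCC than with Hb. Of the 5 tested transport genes 2 rose, 1 fell and 2 did not pass. The glucose transporter genes Slc2a1 (0.88 ± 0.11) and Slc2a3 (0.96 ± 0.12) rose and Slc2a8 (-0.56 ± 0.10) fell. Slc16a3, a lactate transporter (0.09 ± 0.20), and Bsg, the chaperone of such transporters (-0.40 ± 0.21), did not pass. These 5 are not covered by the naming rule and were picked with their values in view.

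**Figure D4:**
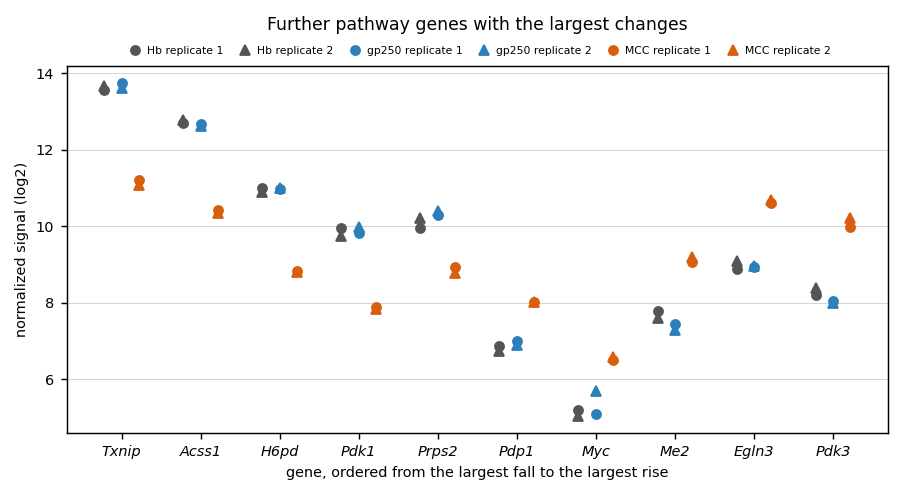
Normalized log2 signal on each array for the 10 further pathway genes with the largest called changes in MCC against Hb, ordered from fall to rise. Circles and triangles are replicates 1 and 2; Txnip has the largest log2 fall, -2.47, and Pdk1 and Pdk3 lie on opposite sides.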

How the data were processed

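Messenger RNA of 6 thymocyte samples was read on 1-colour Illumina arrays, 2 for each of MCC, gp250 and Hb, grouped by the sample titles. The deposited table gives, per the file headers, an intensity without normalization and a detection p-value for every probe on every array. The intensity goes below 0, so a background had been subtracted; the sources used here do not name the scanner software. The authors' processed table, an alternative here, holds the same deposited intensity times 1 factor per array (0.825 to 1.13).

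Of 25697 probes, 23978 had 1 gene symbol, 1719 none here and 0 several, and 23962 matched the RefSeq gene table (GRCm38.p6), used for names. The neqc function of limma 3.58.1 (R 4.3.3) corrected the background by normexp from the detection p-values. It then added an offset of 16 to each signal, quantile-normalized the signals and took their log2. That offset pulls fold changes of dim probes towards 0. The 11942 probes with a detection p under 0.05 on at least 2 arrays were tested, and the probe with the highest mean signal stands for a gene. A linear model with 1 mean per ligand (3 residual degrees of freedom) and eBayes gave p-values, adjusted by Benjamini-Hochberg over all tested probes; under 0.05 was called. "At least" folds set the brighter ligand against the dim probe's own signal or the lowest detected one, whichever was higher on that array. Errors are standard errors. The steps after normalization were tested on simulated data.

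The members, lists and tests were chosen with earlier results of these data known. Values on each array are given for the 8 largest called rises and falls among members, for isoenzyme families and pentose phosphate enzymes, and of the further genes the 10 largest called changes are named. Alternatives were no normexp step, an offset of 50, a common median, no scaling, the authors' table, both other filters, a trended robust prior, the replicate block, each array left out, and the mean over a gene's probes. The sources used here give neither slides nor scan dates.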

Additional observations from a re-analysis of the deposited data

How the results depend on the processing

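All 21 enzymes called in MCC against Hb kept their direction and their call under each of the 16 alternatives that tested them. Hk2 and Aco1 were not tested where detection on all 6 arrays was asked for. Hk2 is among the 21, but the filter kept it through its MCC arrays alone, so its call says nothing about stability. Of the 22 called in MCC against gp250, 21 did so, and Suclg2 missed the threshold without MCC replicate 1 (adjusted p = 0.0543). Of the 13 enzymes not called against Hb, 5 stayed so under every alternative. Without scaling between arrays the median of all probes rose by 0.22 (log2) with MCC over Hb, 4674 probes were called up and 2017 down in place of 3176 and 3369, and 22 enzymes were called up. Cs, Idh3b, Idh3g, Pkm and Rpia were added there, and Idh3g turned to 0.36 against Hb and 0.35 against gp250. Dlat was called without MCC replicate 2 (log2 0.58, adjusted p = 0.0164). Leaving out single arrays gave 17 to 18 rises and 4 falls among the enzymes for MCC against Hb, and 5280 to 6451 calls over all probes. Same-numbered arrays of different ligands did not deviate together (r from -0.02 to 0.02), so the numbers were not taken as pairs. With the replicate number as a block, 17 enzymes rose and 4 fell in MCC against Hb, 17 and 5 in MCC against gp250, and 6331, 6474 and 0 probes were called in MCC against Hb, MCC against gp250 and gp250 against Hb; the block changed no other call of an enzyme. No alternative called a probe for gp250 against Hb, where 782 probes had an unadjusted p under 0.05 in limma.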

Other observations

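Gapdh is often used as a reference transcript, and here it was 2.17-fold higher with MCC than with Hb. Of the 33 other tested enzymes, 7 had a larger fitted log2 fold change than Gapdh, and all 7 were glycolytic (Hk2, Eno2, Eno3, Aldoa, Pfkp, Ldha and Pgam1). Hk2 passed the detection filter through its MCC arrays alone, so it had to differ. Of all tested probes 8.93% were called with a rise of at least 2-fold, and the share above the Gapdh value was not computed. For Pgam1 the value, 1.15 ± 0.10, lay within 1 standard error of that of Gapdh, 1.12 ± 0.10.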
